A study of Mus musculus with 24 samples.

Results

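Polycystic disease, primary cilium and duct fate genes were followed in whole mouse liver. The set consisted of 8 listed genes: Pkhd1, Bicc1, Pkd1, Pkd2, Cftr, Glis3, Onecut1 and Ift88. A gene was measured by the probe set that carries its symbol alone, and by the brightest such probe set where there were several. On these terms 7 of the 8 were measured, out of 18820 genes tested on the array, and Pkd2 was not analysed here. RNA from 24 livers was hybridised to 24 Affymetrix whole-transcript arrays, in 8 groups of 3 mice, and the values are log2 probe set levels. Untreated livers labelled control and untreated NEMO/JNKΔhepa triple knockout livers were taken at 52 weeks of age. Livers labelled control and JNKΔhepa double knockout livers were taken 40 days after diethylnitrosamine (DEN), a carcinogen that alkylates DNA in hepatocytes, and further livers of the same 2 kinds 28 days after bile duct ligation (BDL), which blocks bile outflow. Untreated NEMO single knockout and NEMO/JNK1Δhepa double knockout livers were taken at 8 weeks of age, and no control group of that age was part of the design. NEMO (gene symbol Ikbkg) is a subunit of the kinase complex that activates NF-κB, and JNK1 (Mapk8) and JNK2 (Mapk9) are stress kinases. Deletion rests on Alb-Cre, in which the albumin promoter drives the recombinase in hepatocytes, while JNKΔhepa mice are described in the protocol as Jnk1LoxP/LoxP with a Jnk2−/− background that affects every cell. For the triple knockouts the protocol names NEMOf/f and NEMOΔhepa mice as controls, without saying which of them the 52-week livers are. The mice were on a C57BL/6 background, each liver came from a mouse with its own identifier, and no age is stated for the DEN and BDL mice.

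The bile ducts are lined by cholangiocytes, and each of these cells carries a primary cilium on its apical surface that senses bile flow and composition. Loss of ciliary or cyst proteins such as fibrocystin and the polycystins lets ducts dilate into cysts, in the liver as in the kidney. Duct cells arise from hepatoblasts under Notch signalling and transcription factors of the ONECUT, HNF1 and SOX9 families, and the mature duct secretes chloride, bicarbonate and water into bile through channels such as CFTR.

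Promoter sequence (250 bases before to 50 after the transcription start) was taken from RefSeq on GRCm38.p6 for the 7 listed genes that matched, all but Bicc1. Each window was searched on both strands for GTTAAT, one arm of the site bound by HNF1 factors, ATTGAT, the ONECUT core, and GTTGCC, one arm of the X-box bound by the RFX factors that drive ciliary genes. Only 2 of the 7 windows held any of these letters. Pkhd1 held GTTAAT on its own strand, with its first base at -79 from the start, as did 7.1% of 32851 promoters of the same length. Ift88 held GTTGCC on the opposite strand (read as GGCAAC on its own strand), with its first base at 22 after the start, as did 12.51% of promoters. ATTGAT was in none of the 7 windows and in 7.54% of all promoters. The promoters of Pkhd1 and Cftr are shown because the levels of both genes were higher together at 52 weeks, and because they differ in content: the 250 upstream bases had a GC content of 42.0% in Pkhd1 and 76.4% in Cftr, and only Pkhd1 held a match. Shown are the upstream bases outside the annotated gene, 225 for Pkhd1 and 250 for Cftr, and 30 bases around the match in Ift88. They run 5′ to 3′ on the gene's strand, at chr1:20618083-20618307 (minus strand) and chr6:18170437-18170686 (plus strand), and the Ift88 stretch lies at chr14:57424080-57424109 (plus strand). Capitals mark the matched letters.
Pkhd1: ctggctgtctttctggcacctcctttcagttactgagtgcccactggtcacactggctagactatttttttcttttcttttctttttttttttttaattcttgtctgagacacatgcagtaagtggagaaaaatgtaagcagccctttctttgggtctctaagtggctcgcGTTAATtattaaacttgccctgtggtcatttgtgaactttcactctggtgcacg
Cftr: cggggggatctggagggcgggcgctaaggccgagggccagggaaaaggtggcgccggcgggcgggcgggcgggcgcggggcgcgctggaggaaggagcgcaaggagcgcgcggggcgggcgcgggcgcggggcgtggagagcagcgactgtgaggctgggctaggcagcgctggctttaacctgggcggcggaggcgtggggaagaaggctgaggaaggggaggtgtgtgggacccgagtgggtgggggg
Ift88: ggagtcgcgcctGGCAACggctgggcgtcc

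The targeted genes were read first as a check of the labels. The Mapk8 probe set was lower in every JNK knockout group than in its comparison group (5.65 against 6.52 at 52 weeks, 5.88 against 6.53 after DEN, 5.69 against 6.71 after BDL and 6.05 against 6.67 at 8 weeks). The groups did not overlap in any of the 4 comparisons, and the difference passed at 52 weeks and after BDL (limma adjusted p 0.00259 and 0.0299) but not after DEN or at 8 weeks (0.985 and 0.602). Whether these probe sets lie in the deleted exons was not examined. Mapk9 read between 2.82 and 3.51 in all 18 livers of the 52-week, DEN and BDL groups, those labelled control included, and between 7.99 and 8.53 in the 6 livers taken at 8 weeks. Thus low Mapk9 signal was shared by both sides of 3 comparisons, against the plain label control, and directions below are between livers so labelled. Ikbkg was lower at 52 weeks (6.45 against 7.30) and read 7.07 and 6.92 in the groups labelled NEMO knockout at 8 weeks, beside means of 7.14 and 7.39 in the DEN and BDL livers labelled control. Hepatocyte markers identified all arrays as liver, with a mean over 11 markers of 11.8 to 12.3 in each liver. As a reference for dim signal, probe sets with no gene in the table had a median level of 3.88, and of the 7 genes Cftr alone had a mean over all arrays below it (3.63). Of the 3 livers in a group, the replicate 2 JNK knockout liver after DEN and the replicate 3 NEMO/JNK1 liver at 8 weeks stood apart in several of the genes described here, and results that rest on them are given with and without them.

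Across the 8 groups, the differences were largest for the 3 genes Bicc1, Pkhd1 and Glis3, whose highest and lowest group means lay 2.92, 2.75 and 2.66 apart on the log2 scale. Cftr and Onecut1 spanned 2.00 and 2.17, and Pkd1 and Ift88 only 0.67 and 0.64. With all 8 groups in 1 limma fit, 6 of the 7 genes passed a test for any difference (F test, Benjamini-Hochberg adjusted p 0.00612 for Cftr, 0.0123 for Onecut1, 0.0154 for Pkhd1, 0.0199 for Bicc1, 0.0256 for Ift88 and 0.0288 for Glis3), beside 22.1% of all genes. Pkd1 had an adjusted p of 0.0695. The count ran from 3 to 7 when single livers were left out, and was 3 without control replicate 3 at 52 weeks. Ift88 no longer passed with quantile normalisation (adjusted p 0.0752) or with arrays centred on their median (0.189).

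**Figure D1:**
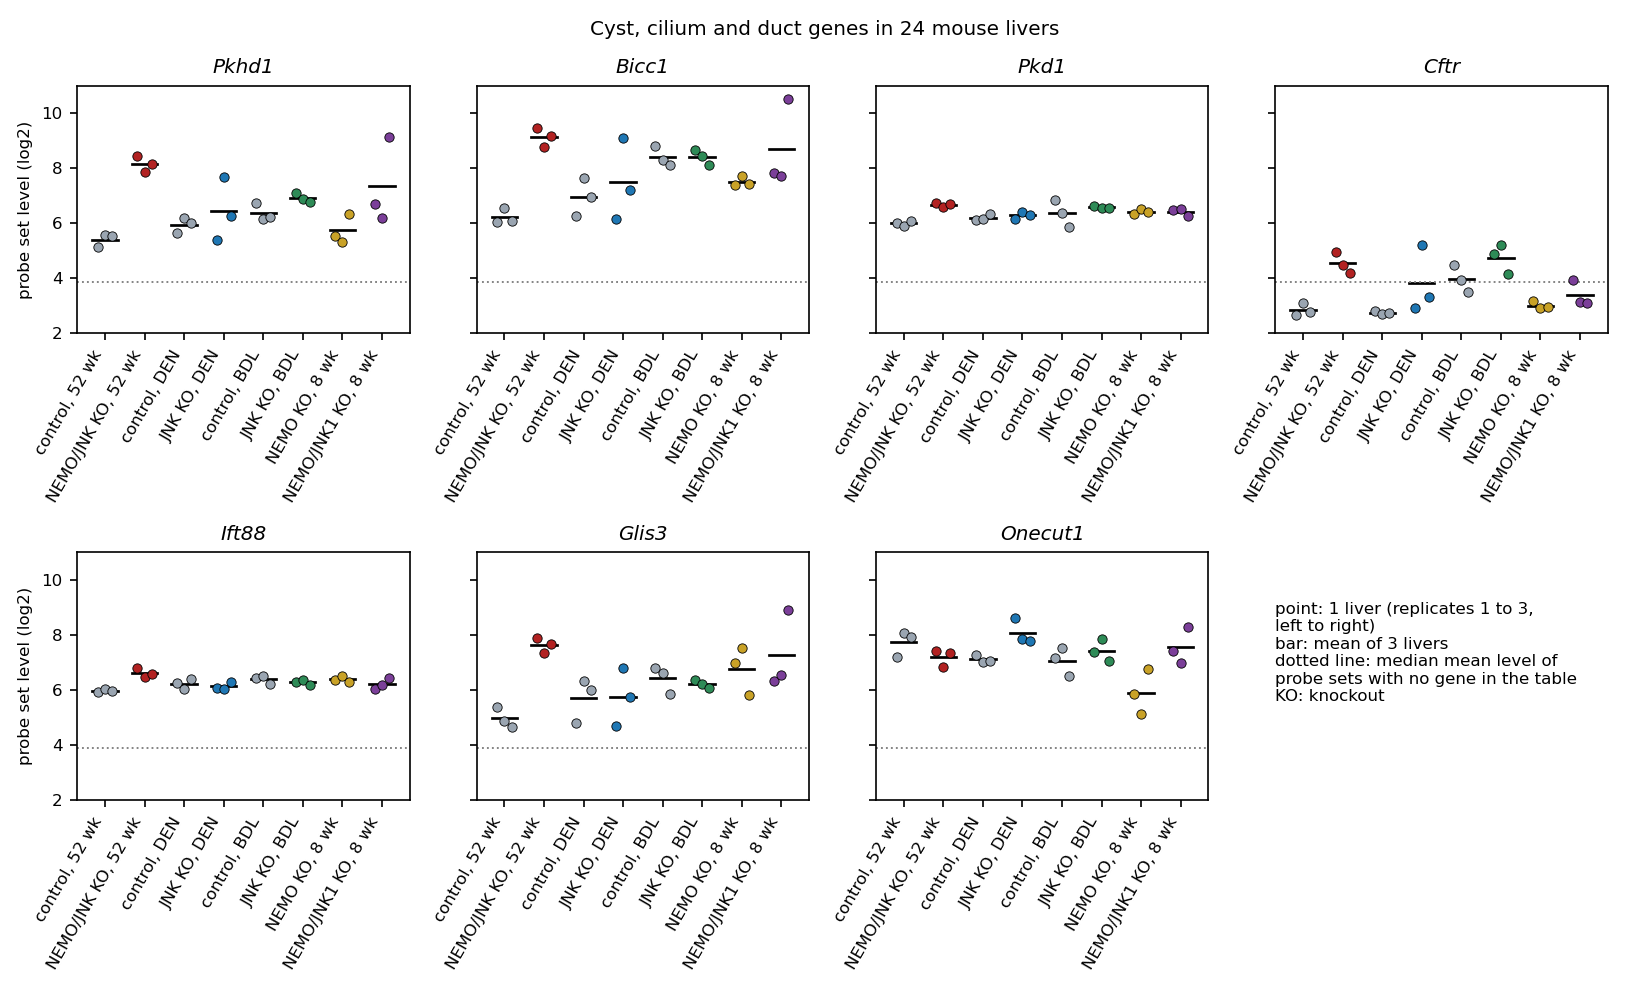
Log2 level of each gene (vertical axis) in every liver (points) of the 8 groups (horizontal axis), with the mean of 3 livers as a bar and the median level of probe sets with no gene, 3.88, as a dotted line. The 3 NEMO/JNK knockout livers at 52 weeks lie above the 3 livers labelled control of that age for every gene but Onecut1, and 1 liver of the NEMO/JNK1 group at 8 weeks is the highest of all 24 for Pkhd1, Bicc1 and Glis3.

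Pkhd1 encodes fibrocystin, the protein lost in recessive polycystic disease of kidney and liver. Its group mean was highest in NEMO/JNK knockout livers at 52 weeks (8.16 ± 0.29, SD, n = 3) and lowest in livers labelled control at the same age (5.41 ± 0.24). Between these ends the means were 7.35 ± 1.59 in NEMO/JNK1 livers, 6.92 ± 0.16 and 6.37 ± 0.31 in knockout and control-labelled livers after BDL, 6.46 ± 1.16 and 5.95 ± 0.27 after DEN, and 5.74 ± 0.54 in NEMO livers. With the 8 groups ordered by mean, the ranges of all neighbours overlapped. The 2 BDL groups, which did not overlap, are no neighbours in that order, since JNK knockout livers after DEN lie between them. The top 2 groups overlapped only through NEMO/JNK1 replicate 3 (9.157). Its mates read 6.693 and 6.196, below the 7.859 to 8.445 of the NEMO/JNK knockout livers at 52 weeks.

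Bicc1 encodes an RNA-binding protein whose loss gives polycystic kidneys and bile duct malformation. It followed nearly the same order, from 9.15 ± 0.36 in NEMO/JNK knockout livers at 52 weeks through 8.70 ± 1.58 in NEMO/JNK1 livers, 8.42 ± 0.29 and 8.41 ± 0.36 in the BDL groups, 7.52 ± 0.18 in NEMO livers and 7.49 ± 1.5 and 6.97 ± 0.69 in the DEN groups to 6.23 ± 0.30 at 52 weeks in livers labelled control. The only adjacent groups in this order with ranges that did not overlap were BDL livers labelled control and NEMO livers. The top 2 groups overlapped only through NEMO/JNK1 replicate 3 (10.52), whose mates read 7.840 and 7.740. A second, dim Bicc1 probe set (mean 2.66 over 24 arrays) was not used.

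Glis3, a zinc finger transcription factor found at primary cilia, ran from 7.63 ± 0.28 to 4.97 ± 0.38 between the same 2 groups of 52 weeks. All neighbours in its order overlapped, the top 2 groups only through NEMO/JNK1 replicate 3 (8.899, against 6.334 and 6.533 in its mates). NEMO livers at 8 weeks, low in Pkhd1, held the third highest Glis3 mean (6.76 ± 0.87).

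Cftr, the apical chloride channel of duct cells, was highest after BDL in JNK knockout livers (4.75 ± 0.55) and next highest at 52 weeks in NEMO/JNK knockout livers (4.55 ± 0.39). Its lowest means were in livers labelled control at 52 weeks (2.85 ± 0.23) and after DEN (2.74 ± 0.04). In 5 of the 8 groups its mean lay below the level typical of probe sets with no gene. Pkd1 (polycystin-1, the large ciliary receptor mutated in dominant polycystic disease) and Ift88 (a core protein of the particle that carries cargo into the cilium) were both highest in NEMO/JNK knockout livers (6.67 ± 0.09 and 6.61 ± 0.17) and lowest in livers labelled control at 52 weeks (6.01 ± 0.10 and 5.97 ± 0.05). All neighbours in the order of Ift88 overlapped, and 2 pairs of neighbours in the order of Pkd1 did not: JNK knockout livers after BDL and NEMO livers, and DEN and 52-week livers labelled control. Onecut1 (HNF6), which is also made by hepatocytes, had a pattern of its own: it was highest in JNK knockout livers after DEN (8.08 ± 0.48), next in livers labelled control at 52 weeks (7.73 ± 0.47), and lowest in NEMO livers at 8 weeks (5.90 ± 0.82).

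At 52 weeks, NEMO/JNK knockout livers held more transcript of 6 of the 7 genes than livers labelled control, and none of the 7 passed in the other direction (limma, adjusted p below 0.05). Among all 18820 genes, 13.6% passed as higher in this comparison (2562 higher and 1486 lower, against 1570 and 8942 with each array centred on its median and 2115 and 2426 with quantile normalisation). For the same 6 genes the lowest knockout liver exceeded the highest liver labelled control, which held for 20.9% of all genes.

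Among the cyst genes, Pkhd1 read 5.141, 5.560 and 5.536 in the livers labelled control and 8.445, 7.859 and 8.175 in the knockout livers. Every knockout liver thus lay more than 2 log2 units above every liver labelled control. The difference was 2.75 (SE 0.18), a 6.72-fold higher level (adjusted p 4.94e-05). Bicc1 rose by 2.92 (SE 0.21), 7.57-fold, from 6.034, 6.567 and 6.078 to 9.487, 8.768 and 9.182 (adjusted p 7.53e-05). The change in Pkd1 was far smaller: it read 6.025, 5.898 and 6.098 against 6.758, 6.578 and 6.687, a rise of 0.67 (SE 0.12) or 1.59-fold (adjusted p 0.00469). All 3 knockout livers were again above all livers labelled control.

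Ift88 rose by 0.64 (SE 0.13), 1.56-fold, from 5.925, 6.025 and 5.949 to 6.795, 6.450 and 6.584 (adjusted p 0.00785). The rises of Pkd1 and Ift88 depend on the scaling between arrays. When arrays were centred on their medians, the median gene lay at -0.371 instead of -0.045, and Pkd1 read 0.34 (adjusted p 0.0504) and Ift88 0.32 (adjusted p 0.0558).

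Of the transcription factors, Glis3 rose by 2.66 (SE 0.21), 6.34-fold, from 5.393, 4.851 and 4.655 to 7.892, 7.343 and 7.653 (adjusted p 0.000123). Onecut1, in contrast, read 7.200, 8.078 and 7.922 in livers labelled control and 7.415, 6.822 and 7.333 in knockout livers. These groups overlapped, and the difference of -0.54 (95% interval -1.10 to 0.02) did not pass (adjusted p 0.151). With arrays centred it was -0.87 (adjusted p 0.0116), and without control replicate 1 it was -0.81 (adjusted p 0.0305).

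The channel Cftr rose by 1.70 (SE 0.21) from 2.667, 3.104 and 2.765 to 4.962, 4.489 and 4.194 (adjusted p 0.000793). All 3 livers labelled control were below the dim reference of 3.88 and all 3 knockout livers above it. With one side below that reference, the difference is one of signals and gives no true ratio of transcript.

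These rises came with higher levels of the cholangiocyte markers. All 11 measured markers rose at 52 weeks (median difference 2.88), with a mean over the list of 4.84 to 5.40 in livers labelled control and 7.91 to 8.35 in knockout livers. Krt19, the keratin of simple epithelia, went from 5.06 ± 0.46 to 9.46 ± 0.46, and Epcam, an epithelial adhesion molecule, from 4.33 ± 0.07 to 7.54 ± 0.42. None of these 11 markers had a mean below the dim reference. Hepatocyte markers changed little as a list (0 of 11 higher and 2 lower, mean over the list 12 to 12.3 in livers labelled control against 11.9 to 12). In whole liver RNA, more cells of a type and more RNA per cell cannot be told apart, and the part of the duct markers in the rises of the 7 genes was not tested.

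**Figure D2:**
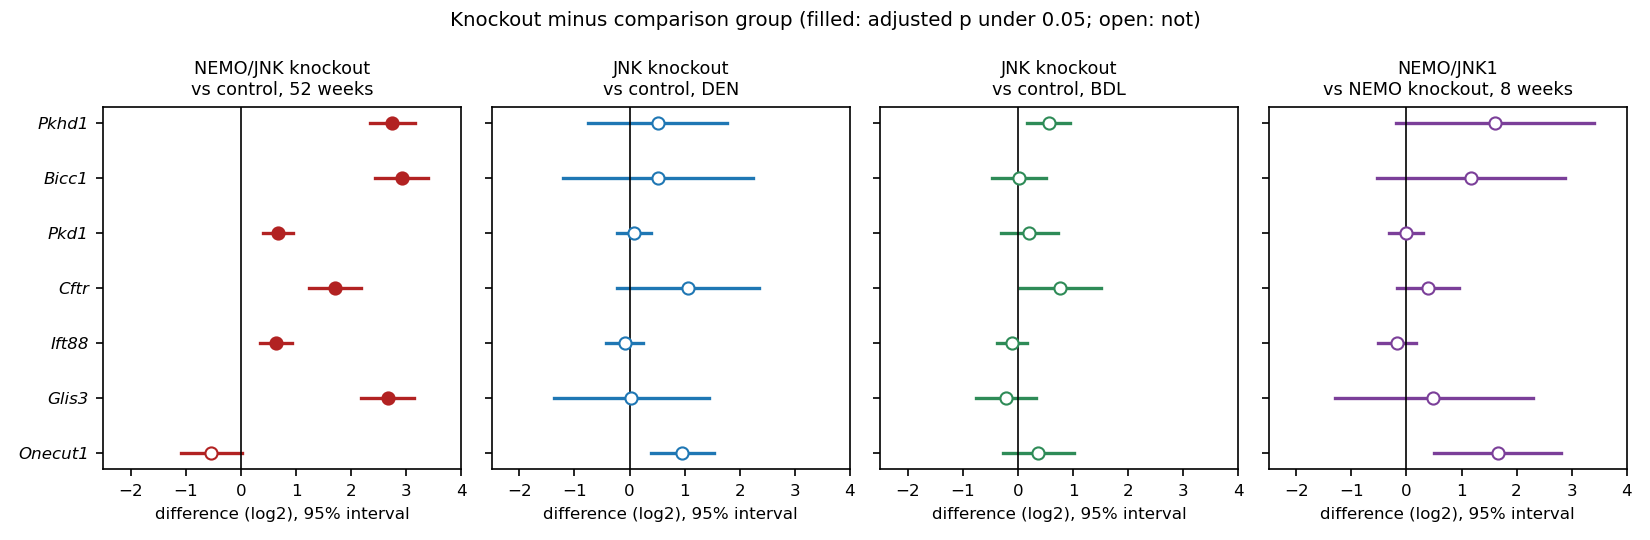
Difference in log2 level for each gene (rows) with its 95% interval in the 4 knockout comparisons (panels), filled where the adjusted p was below 0.05. At 52 weeks 6 intervals lie above 0 and filled, from 0.64 for Ift88 to 2.92 for Bicc1, and no point is filled in the other 3 panels.

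Other genes of the cilium were read as lists chosen for their function. Of 25 genes for intraflagellar transport and its motors, 14 rose at 52 weeks and 0 fell, with a median difference of 0.62 against -0.05 over all genes. The share of all genes called higher was 13.6%, to be read beside this and the following list counts. Dync2li1 and Dync2h1, subunits of the dynein that returns cargo from the ciliary tip, went from 3.87 to 5.22 (adjusted p 0.000437) and from 4.48 to 5.49 (adjusted p 0.000837). Ift57, a transport particle subunit, went from 4.22 to 5.62, and Kif3a, a subunit of the outward kinesin, from 5.24 to 6.17. With arrays centred on their median the list counted 10 higher and 4 lower, and with quantile normalisation 9 and 2.

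Of 21 measured genes of the BBSome, the coat that sorts membrane proteins in and out of the cilium, and of the transition zone at its base, 11 rose and 0 fell (median 0.53). Tctn2 rose by 0.93, B9d1 by 0.95, Bbs2 by 0.76 and Bbs1 by 0.67. The count was 4 higher and 1 lower both with arrays centred and with quantile normalisation, and 6 higher without knockout replicate 3.

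Genes of motile cilia, which duct cells lack, were measured as well. Of 12, 4 rose and 0 fell (median 0.45): Foxj1, the master regulator of motile cilia, went from 4.30 to 5.30, Cfap54 from 3.90 to 5.48 and Cfap43 from 4.61 to 5.46, while Rsph1 stayed under the dim reference (2.89 to 3.48). Without knockout replicate 2 the count was 8.

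Other disease genes of cysts and nephronophthisis moved less as a list: 4 of 19 measured rose and 0 fell, with a median of 0.10 that turned to -0.22 with arrays centred (3 higher and 7 lower) and to -0.03 with quantile normalisation. The 4 were Glis2 (5.48 to 7.57), a zinc finger factor mutated in nephronophthisis, Kif12 (4.10 to 5.58), a kinesin linked to cholestatic disease, Dzip1l (4.32 to 5.29) and Nek8 (4.68 to 5.25). The list of planar polarity and cyst signalling genes was similar, with 4 of 22 higher and 0 lower (median 0.08). Its median was -0.25 with arrays centred (3 higher and 8 lower) and -0.02 with quantile normalisation (3 higher and 2 lower). Both counts of rises stood beside 13.6% of all genes called higher. With arrays centred, falls outnumbered rises among all genes too, so the falls are not particular to these 2 lists. Vangl1 and Vangl2, polarity proteins of the membrane, rose by 0.77 and 0.61, the kinase Src by 1.06 and the receptor Fzd3 by 0.84, the last from 3.14 to 3.99.

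Genes for ductal ion and water transport and for duct fate showed larger single changes. In the secretion list 10 of 19 rose and 1 fell (median 0.58). Those with the smallest p were the calcium-gated chloride channel Ano1 (5.30 to 8.34), the potassium channel Kcnn4 (4.70 to 6.80), the sodium pump subunit Atp1b1 (8.12 to 10.17) and the cation channel Trpv4 (4.22 to 5.43). The gene that fell, named after its values were seen, was Adcy5, an adenylyl cyclase (4.19 to 3.77). Among duct fate factors 12 of 22 rose and 1 fell (median 0.57). The smallest p were those of the epithelial factor Ehf (4.35 to 7.85), Glis2, the Notch target Hey1 (4.11 to 5.24) and the Notch ligand Jag1 (5.44 to 7.69), while Tbx3, a T-box repressor also named after its values were seen, fell from 7.92 to 6.99. With arrays centred these 2 lists counted 7 higher and 3 lower, and 9 higher and 6 lower.

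**Figure D3:**
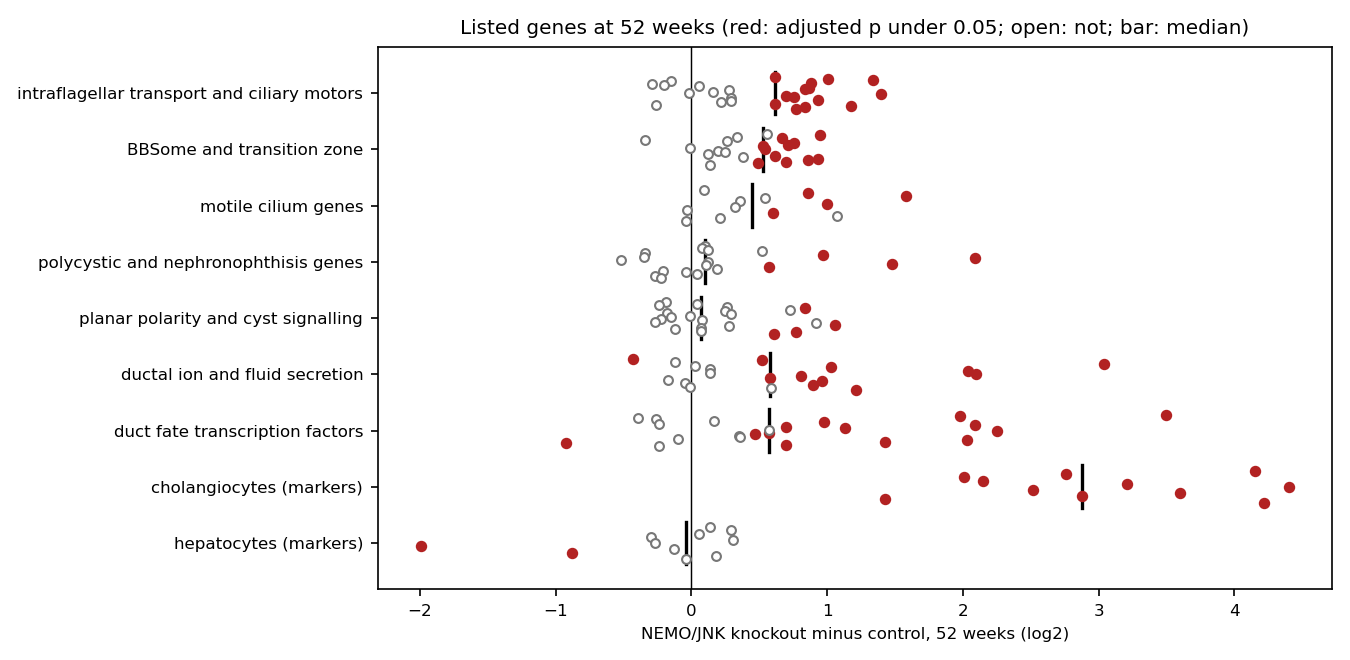
Difference between NEMO/JNK knockout and control-labelled livers at 52 weeks (log2, horizontal axis) for every measured gene of 7 pathway lists and 2 marker lists (rows), red where the adjusted p was below 0.05, with the list median as a bar. The transport list has its median at 0.62 with 14 red points and the cholangiocyte markers at 2.88 with 11, and the hepatocyte markers are centred near 0.

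After DEN, none of the 7 genes was called between JNK knockout and control-labelled livers (limma, 0 called, 0% of all genes called). The smallest adjusted p over all genes was 0.883, and 1 of the 7 genes and 781 of all genes had an unadjusted p below 0.05. Mapk8 was not called here either, so the lack of a call does not show equal levels. The knockout livers were not alike. Pkhd1 read 5.660, 6.199 and 5.995 in livers labelled control and 5.402, 7.702 and 6.271 in knockout livers. Bicc1 read 6.281, 7.658 and 6.959 against 6.141, 9.101 and 7.227, and Glis3 4.776, 6.340 and 5.978 against 4.670, 6.784 and 5.734. Knockout replicate 2 was the highest of the 6 livers for each, while the other 2 lay within or below the range of livers labelled control or just above it. Replicate 2 was also the highest of the livers labelled control for each of these genes.

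Cftr read 2.794, 2.709 and 2.728 in livers labelled control after DEN, all dim, and 2.936, 5.206 and 3.304 in knockout livers. The groups did not overlap, but replicate 2 carried most of the difference of 1.07 (SE 0.54, adjusted p 0.985), which was 0.38 (SE 0.15) without it. Without that liver the differences of Pkhd1, Bicc1 and Glis3 turned from 0.51, 0.52 and 0.03 to -0.11, -0.28 and -0.50, none of them called.

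In the replicate 2 knockout liver, 11 of 11 cholangiocyte markers were above the mean of the other 2 knockout livers (median 1.29 higher). Epcam (8.81) and Cdh1 (9.84) were higher in it than in any of the other 23 livers, whereas Krt19 (6.15) was only 0.08 above the other 2. Of 11 hepatocyte markers 2 were higher in it (median -0.28), with Apob and Cps1 the lowest of all 24 livers, and of 9 stellate cell and fibroblast markers 6 were higher (median 0.39), with Col1a1 1.88 higher. Pkd1 and Ift88 differed there by 0.18 and -0.15. The part of these markers in the values was not tested.

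Onecut1 was the member with the smallest p after DEN. It read 7.255, 7.023 and 7.060 in livers labelled control and 8.630, 7.842 and 7.760 in knockout livers. All knockout livers were higher, by 0.96 on average (SE 0.24, unadjusted p 0.00524 from limma's moderated test, adjusted p 0.985), and by 1.08 without replicate 2. Groups that do not overlap, with the knockout higher, were found for 2 of the 7 genes, Onecut1 and Cftr, and for 3.26% of all genes. Pkd1 and Ift88 differed by 0.08 (95% interval -0.23 to 0.39) and -0.09 (-0.43 to 0.25). In each of the 7 pathway lists 0 genes were called after DEN, and 0 to 2 had an unadjusted p below 0.05. Those with the smallest p included Celsr1, a polarity cadherin (6.25 to 6.92), Ehf (4.17 to 5.59), Ano1 (4.84 to 5.72), the transport gene Ttc21b (4.59 to 5.01) and B9d2 of the transition zone (4.52 to 4.88).

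After BDL, 0 of the 7 genes were called between JNK knockout and control-labelled livers, beside 1.35% of all genes, and 2 had an unadjusted p below 0.05. Pkhd1 read 6.726, 6.141 and 6.233 in livers labelled control and 7.104, 6.869 and 6.794 in knockout livers. It was the only one of the 7 whose groups did not overlap with the knockout higher, as in 9.95% of all genes, and its difference was 0.56 (SE 0.17, unadjusted p 0.0121 from limma, adjusted p 0.186). Cftr read 4.479, 3.942 and 3.504 against 4.886, 5.219 and 4.139, with overlap, a difference of 0.77 (SE 0.32, adjusted p 0.316).

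Bicc1 was level between these groups, at 8.812, 8.298 and 8.115 against 8.681, 8.462 and 8.113, with a difference of 0.01 (95% interval -0.48 to 0.50). Glis3 differed by -0.21 (-0.76 to 0.33), Onecut1 by 0.37 (-0.28 to 1.02), Pkd1 by 0.20 (-0.31 to 0.72) and Ift88 by -0.11 (-0.39 to 0.17). All these intervals include 0, and for Pkd1 the livers labelled control ranged from 5.876 to 6.867 while knockout livers lay within 6.551 to 6.638. The mouse identifiers of the BDL control-labelled mice have 2 different prefixes, and replicate 3 alone shares that of the knockouts. With the prefix as a block the comparison rests on replicate 3 as the only control-labelled liver. The differences of Pkhd1, Cftr and Pkd1 were then 0.69, 1.24 and 0.71, and Glis3 and Ift88 turned to 0.36 and 0.07.

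Cholangiocyte markers averaged 6.08 to 6.62 in control-labelled and 6.71 to 7.22 in knockout livers after BDL. One of the 11 passed, Prom1 (prominin-1, a membrane protein of ductular and progenitor cells), at 5.09, 5.25 and 5.10 against 7.46, 7.86 and 7.84 (adjusted p 0.000311). In the pathway lists 3 genes passed, each lower in the knockout. The epithelial factor Elf3 read 7.66, 6.99 and 6.90 against 6.01, 6.05 and 5.79 (adjusted p 0.0308). Ift57 read 6.72, 6.01 and 6.31 against 5.20, 4.84 and 4.92 (adjusted p 0.0176), and Cfap54 5.53, 5.24 and 5.61 against 4.58, 4 and 3.89 (adjusted p 0.0237). The livers labelled control lay above all knockout livers for these 3 genes. None of the 3 passed as lower with all 24 arrays fitted together or without knockout replicate 2 or replicate 3. Without knockout replicate 1 the transport and duct fate lists counted 0 lower. The motile cilium list also counted 0 without control replicate 1. All 3 had risen at 52 weeks, Elf3 from 4.27 to 6.25 (adjusted p 0.00065).

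At 8 weeks, NEMO/JNK1 livers were compared with NEMO livers, and 0 of the 7 genes were called (0% of all genes; smallest adjusted p over all genes 0.08; 1 of the 7 genes and 1442 of all genes with an unadjusted p below 0.05). All NEMO mice carry 1 identifier prefix and all NEMO/JNK1 mice another, so prefix and genotype cannot be told apart here. Onecut1 read 5.864, 5.108 and 6.742 in NEMO livers and 7.410, 6.971 and 8.298 in NEMO/JNK1 livers. Every NEMO/JNK1 liver was higher, by 1.66 on average (SE 0.48, 3.15-fold, unadjusted p 0.0119 from limma, adjusted p 0.602), and by 1.29 without replicate 3. Onecut1 and Bicc1 were the 2 genes whose groups did not overlap with NEMO/JNK1 higher, as in 6.71% of all genes.

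Pkhd1 read 5.538, 5.331 and 6.349 in NEMO livers and 6.693, 6.196 and 9.157 in NEMO/JNK1 livers. Bicc1 read 7.413, 7.731 and 7.427 against 7.840, 7.740 and 10.520, and Glis3 6.970, 7.514 and 5.802 against 6.334, 6.533 and 8.899. Replicate 3 of the NEMO/JNK1 group was the highest of all 24 livers for these 3 genes, and its 2 group mates lay within or just above the NEMO range. The mean differences of 1.61, 1.18 and 0.49 were 0.70, 0.27 and -0.33 without it.

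The duct markers of this liver were mixed. Of 11 cholangiocyte markers 6 were above and 5 below the mean of its 2 group mates (median 0.47 higher), and their mean of 6.18 was above the 5.79 and 5.64 of the mates. Sox9, the duct and progenitor factor, read 10.1 and was the highest of all 24, whereas Krt7 (4.41) and Krt19 (4.55) ranked 22nd of 24. Cftr (3.113) lay 0.42 below its mates and under the dim reference. All 8 macrophage and Kupffer cell markers were lower than in its mates (median -2.42), and Clec4f, Vsig4, Cd5l and Marco, all made by resident Kupffer cells, were the lowest of all 24 livers. Of 7 endothelial markers 1 was higher than in the mates, Pecam1 by 0.12 (list median -1.1), and Lyve1, Stab2 and Vwf were the lowest of all 24. Of 9 stellate cell and fibroblast markers 1 was higher, Pdgfrb by 0.16 (list median -0.67), and Reln and Dcn were the lowest of all 24. The part of these differences in the values of Pkhd1, Bicc1 and Glis3 was not tested. Pkd1, Ift88 and Cftr differed between the groups by 0.00 (95% interval -0.31 to 0.30), -0.17 (-0.52 to 0.17) and 0.39 (-0.18 to 0.96). In the pathway lists 0 genes were called, and 0 to 4 in each had an unadjusted p below 0.05, among them the Hedgehog transducer Smo (6.24 to 7.90), the nucleotide receptor P2ry2 (7.06 to 6.16), Sox4 (5.44 to 7.24) and Ift57 (4.45 to 5.52).

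The 3 comparisons against control-labelled livers share no arrays, so that their effects could be set against each other. The effect at 52 weeks exceeded that after BDL for 4 of the 7 genes, Pkhd1 (by 2.19, SE 0.27), Bicc1 (by 2.91, SE 0.32), Glis3 (by 2.88, SE 0.35) and Ift88 (by 0.75, SE 0.17), with limma adjusted p of 0.000304, 0.000197, 0.000286 and 0.0101. Of all genes 10.4% passed as higher in this test. For Cftr the difference in effect was 0.93 (95% interval 0.03 to 1.83, adjusted p 0.149), for Pkd1 0.46 (-0.11 to 1.04, adjusted p 0.259) and for Onecut1 -0.91 (-1.81 to -0.02, adjusted p 0.155). The prefix as a block leaves replicate 3 as the only BDL liver labelled control. The differences were then 2.06 for Pkhd1, 2.62 for Bicc1, 2.30 for Glis3 and 0.57 for Ift88. For Cftr, Pkd1 and Onecut1 they were 0.46, -0.04 and -1.45. With all 24 arrays in 1 fit Pkhd1 was not called (2.19, adjusted p 0.0881). Without control replicate 3 of the BDL group Pkd1 was called as well (0.71, adjusted p 0.0224), as was Onecut1 with arrays centred (-1.22, adjusted p 0.0327). The genotype and the treatment differ between these 2 comparisons and cannot be told apart, and the age of the BDL mice is not stated.

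Against the effect after DEN, 0 of the 7 differences were called, beside 2.33% of all genes, although 6 had an unadjusted p below 0.05. They were 2.24 for Pkhd1, 2.40 for Bicc1, 2.63 for Glis3, 0.73 for Ift88, 0.59 for Pkd1, 0.63 for Cftr and -1.51 for Onecut1, with limma adjusted p from 0.063 for Onecut1 to 0.655 for Cftr. Without the replicate 2 JNK knockout liver, 6 were called, all but Ift88: Pkhd1 2.86 (adjusted p 0.00308), Bicc1 3.20 (0.00641), Glis3 3.16 (0.00848), Cftr 1.33 (0.017), Pkd1 0.65 (0.0369) and Onecut1 -1.63 (0.0284). That liver was picked because it stood apart in several of these same genes, so these calls show its weight and are no separate evidence. For Cftr, all DEN livers then left lay below the dim reference (2.709 to 3.304). The JNK knockout effects after BDL and after DEN were called different in 0 of the 7 genes, with 0 unadjusted p below 0.05, beside 0.0478% of all genes.

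BDL livers were also set against DEN livers of the same label, a comparison in which ligation, carcinogen and time differ together. In livers labelled control Cftr was 1.23 higher after BDL (SE 0.23, adjusted p 0.0388), a difference of signals whose DEN side (2.709 to 2.794) lay below the dim reference and which is no measure of the true ratio, and the other 6 genes were not called, beside 1.74% of all genes called as higher. Every BDL liver was above every DEN liver for Cftr. Yet the call was lost on leaving out any liver but control replicate 3 of the BDL group. The prefix block leaves that replicate as the only BDL liver, and the difference was then 0.76. Bicc1 was 1.44 higher without overlap (SE 0.34, adjusted p 0.0736). These values stood beside 3 of 11 cholangiocyte markers called higher (Krt7, Epcam and Cldn4) and 0 called lower. The duct markers were not uniform: Tspan8 (8.33 to 5.47) and Prom1 (5.99 to 5.15) were lower after BDL without being called. Of 9 stellate cell and fibroblast markers 6 were called higher, with Col1a1, a fibrillar collagen, 3.09 higher. Elf3 (4.28 to 7.18), Ift57 (4.26 to 6.35), Dync2li1 (4.12 to 4.95) and Src (4.95 to 5.90) were the pathway list genes called, all higher. The part of the markers in the values of Cftr and Bicc1 was not tested. In JNK knockout livers 0 of the 7 were called, beside 1.08% of all genes called in either direction, and 1 had an unadjusted p below 0.05. Without the replicate 2 DEN knockout liver, Bicc1 (1.73, adjusted p 0.0297) and Cftr (1.63, adjusted p 0.0309) were called there too. That liver was picked because it stood apart in these same genes, and the DEN knockout livers left for Cftr (2.936 and 3.304) were below the dim reference.

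Across livers, Bicc1 varied with both Pkhd1 and Glis3. Over all 24 arrays, which share the scaling of the same RMA run and the group differences above, Bicc1 correlated with Pkhd1 at r = 0.90 and with Glis3 at r = 0.88, and after removal of group means at 0.92 and 0.88. Without the 2 livers that stand apart the values were 0.86 and 0.85 over 22 arrays, and 0.64 and 0.72 after removal of group means. Bicc1 was the 12th most similar of 18819 genes to Pkhd1 and the 12th most similar to Glis3. Pkhd1 and Glis3 correlated at 0.75, and at 0.59 without the 2 arrays farthest from the median of Pkhd1, of which 1 is the NEMO/JNK1 replicate 3 liver. After removal of group means they correlated at 0.68, and at 0.04 without the 2 livers that stand apart, so that their common variation within groups rested on those livers. Onecut1 correlated at only 0.27 with Pkhd1, 0.01 with Bicc1 and -0.26 with Glis3.

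The correlation with the mean of the 11 cholangiocyte markers was 0.82 for Cftr, 0.81 for Pkhd1, 0.77 for Bicc1, 0.68 for Pkd1, 0.62 for Ift88, 0.59 for Glis3 and 0.07 for Onecut1. Without the NEMO/JNK1 replicate 3 liver it was 0.96 for Pkhd1, 0.89 for Bicc1 and 0.70 for Glis3. After removal of group means, over all 24 arrays, it was 0.76 for Pkhd1, 0.75 for Bicc1, 0.68 for Cftr and 0.50 for Glis3. For Pkd1, Onecut1 and Ift88 it was then 0.30, 0.26 and 0.07. Glis3 in NEMO livers ran against the markers: it was highest (7.514) in the liver with the lowest marker mean of that group (5.18) and lowest (5.802) in the liver with the highest (6.23).

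**Figure D4:**
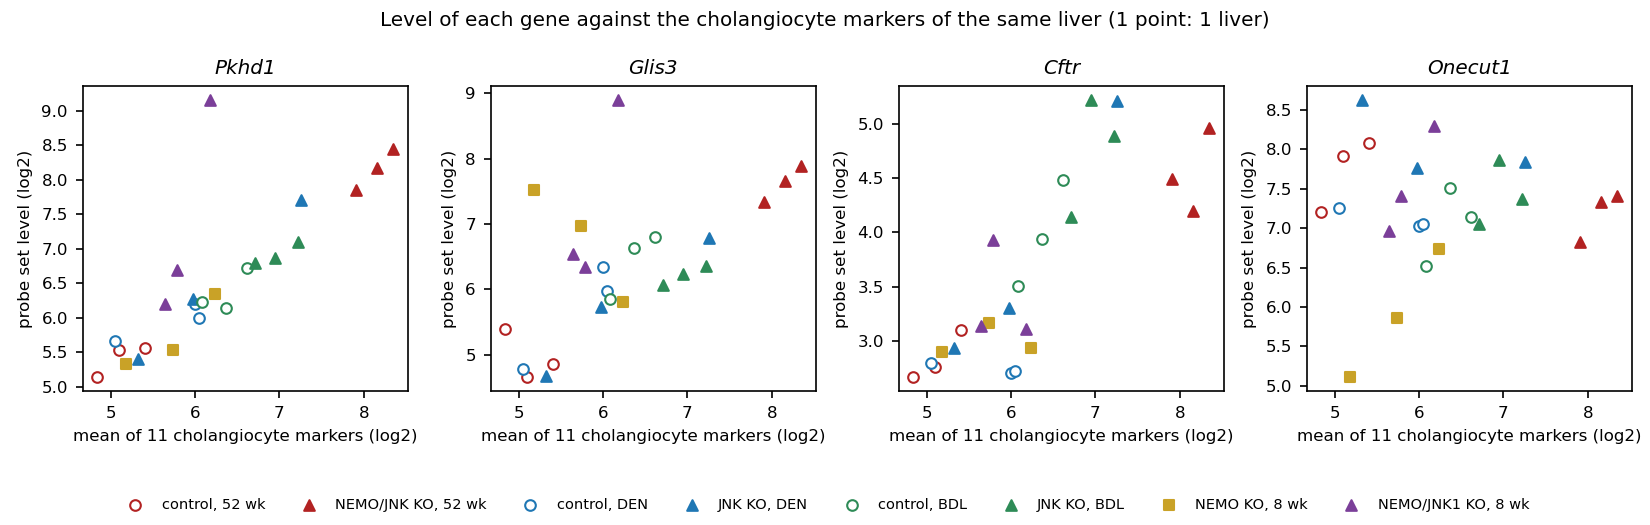
Log2 level of Pkhd1, Glis3, Cftr and Onecut1 (vertical axes) against the mean of 11 cholangiocyte markers in the same liver (horizontal axis, log2), 1 point for each of 24 livers. Pkhd1 lies higher where the markers do, from 5.141 to 8.445, with the NEMO/JNK1 liver at 9.157 apart, and Onecut1 shows no such order.

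The genes most like each member over the 24 arrays were named as a description. For Pkhd1 they were Chrnb1 (r = 0.947), an acetylcholine receptor subunit, Ttll10 (0.935), a tubulin ligase family member, and Jag1 (0.928), and for Bicc1 the collagen receptor Ddr1 (0.955), the amyloid precursor App (0.946) and Lims1 (0.931), an adaptor at integrin contacts. Glis3 was closest to Crim1 (0.930), Shroom3 (0.923), an actin-binding shape protein, and Phldb1 (0.922), and Cftr to Tmem45a (0.906), Tmem123 (0.904) and Wls (0.904), the carrier that exports Wnt proteins. The members with small ranges had looser partners: Pkd1 was closest to Son (0.837), Rnf41 (0.823) and Zdhhc1 (0.804), and Ift88 to Zbtb1 (0.827), Cfap410 (0.815), a ciliary protein, and Ifnlr1 (0.813). Onecut1 was closest to Smc1a (0.838), a cohesin subunit, Cltb (0.787), the clathrin light chain, and Xab2 (0.781). Without the 2 arrays farthest from the member's median, both NEMO livers in the case of Onecut1, its values fell to 0.699, 0.470 and 0.638, while those of Pkhd1 and Bicc1 stayed between 0.903 and 0.941.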

How the data were processed

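Per the submitters' processing notes the authors made the deposited log2 values with RMA, which corrects background, normalises between arrays and summarises probes; the chip definition is not named in the sources. Total RNA from 24 livers of separate mice was labelled for whole transcripts, per the labels' protocols. Of 35556 probe sets, 21218 carried 1 gene symbol in the platform table, 1881 several and 12457 none; the brightest probe set was kept for each of 18820 genes. Array medians over all 35556 probe sets lay between 4.52 and 4.66, and arrays of a group correlated at 0.966 to 0.987. The median centring named below used the 18820 genes instead. Having 3 arrays a group limits the precision. Each comparison was fitted with limma 3.58.1 (R 4.3.3) on its own groups, p-values were Benjamini-Hochberg adjusted over all 18820 genes, and an adjusted p below 0.05 was called; effects were compared by interaction terms. An exact permutation test of 3 against 3 cannot go below p = 0.1 and was not used. Alternatives were quantile normalisation, median centring, a filter on dim genes, array weights, the mean of all probe sets, another variance prior, the replicate number or identifier prefix as a block, all arrays in 1 fit, and each liver left out; the list counts under them were added after seeing the data. The code was tested on simulated data. Named list genes are up to 4 passed genes with the smallest p, or up to 2 with the smallest unadjusted p where none passed; likeness genes are the 3 with the highest r. The members and lists were chosen with earlier results of these data known.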

Additional observations from a re-analysis of the deposited data

Results flagged for a closer look

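The effect of the knockout differed between the 52-week and the BDL comparison for 4 of the 7 genes, by a test of the difference itself (limma interaction term). Each was higher at 52 weeks, by 2.19 (SE 0.27) for Pkhd1, by 2.91 (SE 0.32) for Bicc1, by 2.88 (SE 0.35) for Glis3 and by 0.75 (SE 0.17) for Ift88. With the prefix block, which leaves 1 BDL liver labelled control, they were 2.06, 2.62, 2.30 and 0.57. Pkhd1 was not called with all 24 arrays in 1 fit (limma adjusted p 0.0881). The effects at 52 weeks were 2.75, 2.92, 2.66 and 0.64, and after BDL 0.56, 0.01, -0.21 and -0.11. For Bicc1 the BDL livers of both labels lay between 8.113 and 8.812, above the 6.034 to 6.567 of livers labelled control at 52 weeks.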

How the results depend on the processing

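Of 1027 differences of single members under an alternative, 992 kept their call, 12 lost it and 23 gained it, 0 called differences changed sign, and 50 differences that were not called did. The count of members called in the 4 knockout comparisons, in the effect at 52 weeks against BDL and in the effect after BDL against DEN stayed within 1.5 times under every alternative. The genes behind a count could change. At 52 weeks with arrays centred, Pkd1 and Ift88 were no longer called (limma adjusted p 0.0504 and 0.0558). Onecut1 was then called as lower (-0.87, adjusted p 0.0116). For the effect at 52 weeks against DEN, where 0 were called, quantile normalisation, arrays centred on their median and all 24 arrays fitted together each gave 1, array weights gave 6, and leaving out single livers gave 0 to 6. For BDL against DEN in livers labelled control 1 was called. The count was 0 with dim genes filtered out (Cftr itself was removed), with the replicate block and with all 24 arrays together. It was 0 to 1 when single livers were left out. For BDL against DEN in JNK knockout livers, array weights gave 1 and leaving out single livers 0 to 2, and for any difference over the 8 groups leaving out single livers gave 3 to 7. The cause of these shifts was not tested. Replicate numbers are shared by the groups, and the reported fits use no pairing. Not every correlation of same-numbered deviations was over 0.1 (0.02 to 0.04 at 52 weeks, 0.04 to 0.36 after DEN, -0.07 to 0.14 after BDL and -0.07 to 0.01 at 8 weeks). Every liver correlated best with its own number only at 52 weeks. After DEN replicates 1 and 2 did so too (0.36 and 0.3), and after BDL replicates 1 and 3 (0.14 and 0.04). These values do not settle whether the numbers pair livers. The replicate block gave 6 called at 52 weeks and 4 in the effect at 52 weeks against BDL, as without it. After DEN it gave 0 called, also as without it. The SE there was smaller with the block for Glis3 (0.17 against 0.60), Bicc1 (0.31 against 0.73) and Pkhd1 (0.34 against 0.53), and the same for Pkd1 (0.13). The prefix block could not be fitted for the 8-week comparison and was not run for the test over 8 groups. In comparisons with the BDL livers labelled control it rests on replicate 3 alone, so it is no full adjustment for prefix. With 3 livers a group, precision was lowest for variable genes, as for Glis3 after DEN, where the interval without the block ran from -1.38 to 1.44.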

Other observations

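Markers of other cell types also moved in these livers. The shares of all genes called at 52 weeks, 13.6% higher and 21.5% in either direction, are to be read beside the counts below. At 52 weeks Msln (mesothelin, made by mesothelium) rose from 3.94 ± 0.44 to 7.39 ± 0.55 (SD, n = 3; limma adjusted p 0.000167), while Lrrn4, another mesothelial marker, fell from 4.13 to 3.55. Of 9 stellate cell and fibroblast markers 2 rose at 52 weeks, Pdgfrb (6.82 to 7.77) and Lum (6.14 to 7.66), and 1 fell (median of the list 0.40). Lrat, the retinol-storing enzyme of quiescent stellate cells, was the one that fell, from 8.09 to 5.91 (limma adjusted p 0.00132) and read 8.38 against 6.89 after BDL (limma adjusted p 0.0105), where Acta2, the actin of activated stellate cells, read 7.96 against 9.31. Of 8 macrophage markers 6 rose at 52 weeks and 0 fell, with Cd68, a lysosomal protein of macrophages, going from 7.67 to 9.43. Of 6 T and NK cell markers 5 rose, among them Thy1 (4.93 to 7.25), which fibroblasts also make.

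Elf3 had the highest group mean of all 8 groups in BDL livers labelled control (7.18) and the lowest at 52 weeks in livers labelled control (4.27, and 4.28 after DEN), and NEMO livers at 8 weeks stood at 6.46. Prom1 read 7.72 in JNK knockout livers after BDL and 7.95 in NEMO/JNK knockout livers at 52 weeks, and between 5.07 and 6.26 in the other 6 groups.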
